A study of Mus musculus with 8 samples.

Results

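The 8 genes described here encode the germline Tudor domain proteins of the table: Tdrd1, Tdrd5, Tdrd6, Tdrd7, Tdrd9, Tdrd12, Tdrkh and Rnf17. They were taken by symbol from a table of 45550 transcript rows that summed to 17589 genes, and they hold 19 of those rows. RNA was sequenced from spermatogonia of C57BL/6 mice at 6 days after birth, in 4 control libraries and 4 libraries of a conditional Kdm1a knockout. All mice of both groups carried the GOF/deltaPE-Oct4/GFP reporter, whose fluorescence was used to sort the germ cells out of digested testes. The sources used here do not name the Cre that made the knockout, and they do not say that the libraries came from separate animals. A p-value therefore measures the spread between libraries, which may be technical only. Kdm1a encodes a histone demethylase. Its level was 53.7, 54.0, 92.0 and 48.1 FPKM in control replicates 1 to 4 and 14.2, 14.1, 17.3 and 14.9 FPKM in knockout replicates 1 to 4. It fell 4.10-fold, from 61.9 ± 20.2 to 15.1 ± 1.49 FPKM (SD, n = 4 each; limma adjusted p = 6.88e-05). FPKM divide the fragments of a transcript by its length and by the size of the library, so levels can be compared between genes. Sums of rows are less comparable, since short rows weigh more in them than their fragments do.

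Tudor domains bind methylated residues, and in the proteins of this family several of them recognise methylated arginines at the tails of PIWI proteins. PIWI proteins carry piRNAs, small RNAs that guide the silencing of transposons in male germ cells. The Tudor proteins gather PIWI proteins, helicases and nucleases into granules, the cement between mitochondria in early germ cells and the chromatoid body in spermatids.

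The sorted cells carried germ cell RNA. All 10 germ cell markers were tested, with a summed level of 1061 to 1103 FPKM in controls and 989.7 to 1066 FPKM in knockouts, led by Dazl. Of these 10, 1 rose, 3 fell and 6 were not called. Zbtb16 fell from 61.2 ± 7.62 to 22.4 ± 7.21 FPKM, Lin28a from 74.3 ± 6.61 to 36.2 ± 1.99 FPKM and Sall4 from 76.4 ± 5.06 to 46.5 ± 8.94 FPKM, while Sohlh2 rose from 52.9 ± 5.01 to 101.5 ± 14.7 FPKM (SD, n = 4). Sertoli cell markers summed to 16.7 to 51.4 FPKM in controls and 22.2 to 61.1 FPKM in knockouts, and none of 8 tested was called, with 1 at an unadjusted p under 0.05. Their median log2 change was 0.46, against 0.09 over all genes tested. Clu, the highest of them, was 25.1 FPKM in control replicate 1 and 7.05 to 9.62 FPKM in the other controls, against 11.7 to 27.6 FPKM in knockouts. The 14 meiotic prophase markers summed to 606 to 626 FPKM in controls and 919 to 1173 FPKM in knockouts, 12 of them called higher and led by Stag3. Of 8 round spermatid markers 3 had rows, summing to 5.41 to 7.93 FPKM in controls and 11.8 to 21.2 FPKM in knockouts. Endothelial markers summed to 3.98 to 5.62 FPKM in controls and 11.2 to 12.1 FPKM in knockouts, through Pecam1 and Tek. Of the others, Cdh5 was 1.86 ± 0.324 and 2.08 ± 0.254 FPKM and was not called. Kdr, under the filter, was 0.811 ± 0.256 and 0.833 ± 0.0848 FPKM (SD, n = 4). Peritubular markers summed to 5.70 to 11.1 and 4.72 to 8.25 FPKM, and macrophage markers to 1.99 to 2.75 and 1.67 to 3.49 FPKM, in controls and knockouts. Of the peritubular markers, Myl9 fell from 5.03 ± 1.28 to 2.98 ± 0.789 FPKM (SD, n = 4; limma adjusted p = 0.0375), and Acta2 was not called. Erythroid markers summed to 0.282 to 0.760 and 1.60 to 2.50 FPKM, and Star, the only Leydig marker with a row, to 1.24 to 2.16 and 1.23 to 1.83 FPKM. The part of any marker list in the values below was not tested. Inferred depth was 60750000 to 67000000 fragments in controls and 45000000 to 63250000 in knockouts. Knockout replicate 2, the shallowest library, stood apart with 1642 rows listed at 0, against 506 to 734 in the others.

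Of the 7 members that passed the filter of a mean of 1 FPKM, Tdrd12 rose, Tdrd1 fell and 5 were not called. Over all 13483 genes tested, 25.3% rose and 12.1% fell, so the members' share of calls was no higher than the background of 37.5%. Their median log2 change was -0.11, against 0.09 over all genes tested. Without knockout replicate 2, a leave-out planned for every library, 1 member rose and 2 fell, beside 28.6% and 15% of all genes. In bulk RNA, fewer cells of a type and less RNA per cell cannot be told apart.

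The promoters of the members with a changed or divided level are shown because these genes differ in CpG content. Windows of 300 bases, 250 before and 50 after the start, came from RefSeq on GRCm38.p6, the sequence of mm10, and 6 of the 8 members matched. Each is written along the gene's own strand, with every CpG dinucleotide in capitals. The window of Tdrd1-201 lies at chr19:56826025-56826324 on the plus strand, that of Tdrd12-201 at chr7:35537695-35537994 on the minus strand. Tdrd7 has separate starts for its main transcripts, Tdrd7-201 at chr4:45972047-45972346 and Tdrd7-202 at chr4:45965085-45965384, both on the plus strand.
Tdrd1-201: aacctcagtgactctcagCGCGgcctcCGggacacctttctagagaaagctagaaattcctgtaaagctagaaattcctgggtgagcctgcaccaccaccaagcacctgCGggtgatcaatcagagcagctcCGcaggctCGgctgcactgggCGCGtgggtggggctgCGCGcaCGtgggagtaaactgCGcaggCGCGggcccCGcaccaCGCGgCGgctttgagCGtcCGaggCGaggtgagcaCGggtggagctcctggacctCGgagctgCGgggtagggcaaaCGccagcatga
Tdrd12-201: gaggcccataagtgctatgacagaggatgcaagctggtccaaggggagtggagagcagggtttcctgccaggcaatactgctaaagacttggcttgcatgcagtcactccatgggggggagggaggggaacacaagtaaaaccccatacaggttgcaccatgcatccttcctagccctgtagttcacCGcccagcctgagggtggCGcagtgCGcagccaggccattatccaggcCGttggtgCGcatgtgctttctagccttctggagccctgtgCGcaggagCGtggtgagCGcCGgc
Tdrd7-201: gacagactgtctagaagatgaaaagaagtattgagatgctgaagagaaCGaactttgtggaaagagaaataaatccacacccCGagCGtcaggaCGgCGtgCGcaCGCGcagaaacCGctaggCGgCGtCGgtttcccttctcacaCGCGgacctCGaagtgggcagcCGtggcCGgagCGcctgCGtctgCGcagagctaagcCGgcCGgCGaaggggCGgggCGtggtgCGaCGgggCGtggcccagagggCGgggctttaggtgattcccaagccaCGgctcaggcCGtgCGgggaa
Tdrd7-202: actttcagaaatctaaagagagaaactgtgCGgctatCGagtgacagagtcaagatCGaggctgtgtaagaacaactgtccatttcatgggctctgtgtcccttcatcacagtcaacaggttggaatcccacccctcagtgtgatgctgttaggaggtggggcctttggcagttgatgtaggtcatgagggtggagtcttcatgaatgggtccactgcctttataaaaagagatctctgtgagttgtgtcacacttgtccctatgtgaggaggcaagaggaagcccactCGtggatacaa
The Tdrd1 window holds 25 CpG, an observed over expected ratio of 0.81, while the Tdrd12 window holds 9 with a ratio of 0.34, below the median of 0.384 over 32851 windows. The upstream start of Tdrd7-202 has 4 CpG and a ratio of 0.23, and the start of Tdrd7-201 has 32 and a ratio of 1.11. Tdrd5 and Tdrkh had CpG-rich windows, with ratios of 1.11 and 0.956, and Tdrd9 had 0.43. Both strands were searched for the E-box CACGTG, the E2F motif TCCCGC and the MYB motif AACNGTC, which occur in 7.15%, 20% and 8.01% of all windows. The E-box reads the same on both strands, and it lies 77 bases before the start in the Tdrd1-201 window and at 165 and 95 bases before it in the Tdrd9 window. A MYB match lies 7 bases before the Tdrd9 start and 177 before that of Tdrd7-202. The windows of Tdrd12-201, Tdrd7-201 and Tdrkh hold none of these motifs, and the Tdrd5 window has an E2F match and a MYB match.

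In control cells, Tdrd1 had the highest level of the family. Its range of 55.4 to 70.2 FPKM lay above every other member and its mean above 91.0% of all genes tested. Tdrd9, Tdrkh, Tdrd5 and Rnf17 followed with means of 37.9, 35.2, 34.0 and 33.5 FPKM, and their ranges overlapped. Tdrd7 stood below them at 26.8 to 28.7 FPKM, and Tdrd12 lower still at 19.0 to 22.2 FPKM. Tdrd6 was under 1 FPKM in every control. In the knockouts Tdrd1 remained above the others, at 44.6 to 51.3 FPKM, while Tdrd12 at 24.6 to 33.1 FPKM overlapped the ranges of Tdrd7, Tdrd9 and Tdrkh. These overlaps came from knockout replicate 2: in the other knockouts Tdrd12 was 24.6 to 27.3 FPKM, above Tdrd7 at 21.1 to 23.8 FPKM and below Tdrd9 and Tdrkh.

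**Figure D1:**
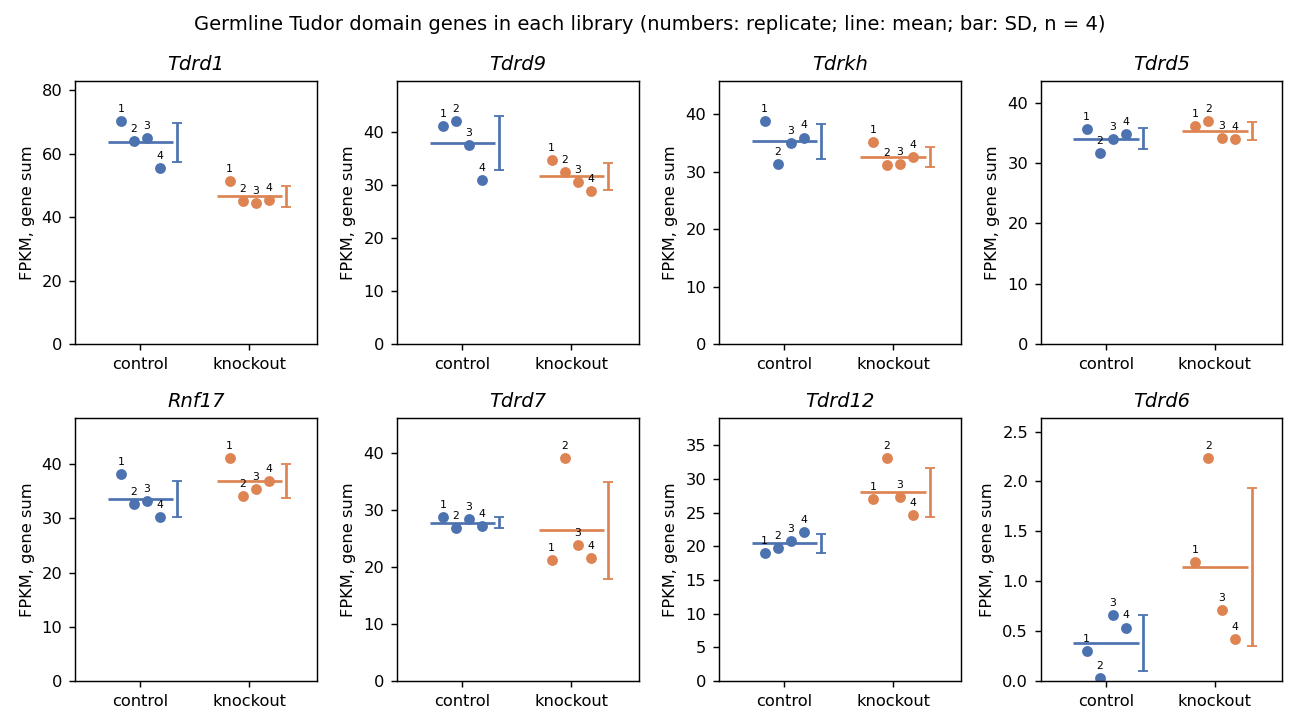
Level of each member in FPKM, transcript rows summed by gene, in 4 control and 4 knockout libraries. Points carry the replicate number, lines are means and bars SD; the groups of Tdrd1 and Tdrd12 do not overlap, and knockout replicate 2 stands alone at 39.1 FPKM in Tdrd7.

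Tdrd1 encodes a scaffold of the mitochondrial cement that binds PIWIL2. The gene (ENSMUSG00000025081) lies on chromosome 19 from 56826209 to 56870012, plus strand. Its level was 70.2, 63.8, 65.0 and 55.4 FPKM in control replicates 1 to 4 and 51.3, 45.0, 44.6 and 45.3 FPKM in knockout replicates 1 to 4. Every knockout lay under every control. The mean fell 1.37-fold, from 63.6 ± 6.14 to 46.5 ± 3.21 FPKM (SD, n = 4), a log2 change of -0.44 with SE 0.09 (limma, adjusted p = 0.00463). The groups did not overlap in 38.6% of all genes tested. The call held with each library left out, at adjusted p 0.00302 to 0.0190 in limma. With library totals made equal, where the median of all genes was 0.74, Tdrd1 had a log2 change of 0.27 and no call, limma's adjusted p being 0.318 (0.00221 to 0.318 over 21 alternatives).

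No single row of Tdrd1 was called, although the sum fell. Tdrd1-201 and Tdrd1-203 share 4858 bases, with 29 and 56 bases of their own. Tdrd1-203 was listed at 37.4, 32.5, 20.7 and 20.3 FPKM in controls and at 26.2, 10.8, 16.4 and 24.3 FPKM in knockouts. Tdrd1-201 was listed at 31.0, 29.8, 43.5 and 34.3 FPKM in controls and at 23.6, 33.5, 27.4 and 20.6 FPKM in knockouts. The rows overlapped between groups and traded places from library to library, so that neither was called (limma adjusted p = 0.141 for Tdrd1-201 and 0.267 for Tdrd1-203). Tdrd1-204, with a mean of 1.21 FPKM in controls and 0.862 FPKM in knockouts, was not called either. Cufflinks divides fragments between rows that share sequence, so values of single rows are uncertain. Taken by Tdrd1-201 alone, the most abundant row, the gene had a log2 change of -0.39 and no call.

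Tdrd12 encodes a Tudor protein with a helicase domain, needed for making secondary piRNAs. The gene (ENSMUSG00000030491) spans chromosome 7 positions 35469098 to 35537745, minus strand, in GENCODE M21. Its level was 19.0, 19.8, 20.8 and 22.2 FPKM in controls and 27.0, 33.1, 27.3 and 24.6 FPKM in knockouts. Every knockout lay above every control, and knockout replicate 2 was the highest. The mean rose 1.37-fold, from 20.4 ± 1.37 to 28.0 ± 3.63 FPKM (SD, n = 4), a log2 change of 0.43 with SE 0.10 (limma, adjusted p = 0.00868). Without knockout replicate 2 the log2 change was 0.35 (limma adjusted p = 0.00551; 6.13e-05 to 0.0315 over 21 alternatives), and Tdrd12 was called in each of them. The value rests on the 5′ part of the locus, since its rows end at 35493612 and longer transcripts of the annotation are not among the rows analysed here. Tdrd12-201, of 1620 bases and 12 exons, held 97.0% of the sum in controls and 98.0% in knockouts. The processed pseudogene Gm18558 lies within the span of Tdrd12-201 on the same strand, and whether it overlaps an exon was not checked.

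The ratio of Tdrd12 to Tdrd1 within a library does not depend on how libraries are scaled. It was 0.271, 0.310, 0.319 and 0.400 in controls and 0.525, 0.737, 0.612 and 0.543 in knockouts. The means were 0.325 ± 0.0545 and 0.604 ± 0.0959 (SD, n = 4), and the groups did not overlap. Every knockout lay above every control in Tdrd12 and under every control in Tdrd1, so the ratio could not overlap. Its lack of overlap therefore adds nothing to that of each gene. This pair was chosen after its values were seen, so the ratio is given without a test.

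Tdrd9 encodes a helicase of the same pathway that works with PIWIL4. Its single row (gene ENSMUSG00000054003, chromosome 12, 111971559 to 112068854, plus strand) was listed at 41.1, 42.0, 37.6 and 31.0 FPKM in controls and at 34.7, 32.5, 30.6 and 28.9 FPKM in knockouts. Control replicate 4 lay among the knockouts, and the other controls lay above them. The log2 change was -0.25 with SE 0.11 and was not called (limma, unadjusted p = 0.0473, adjusted p = 0.102). It was called without control replicate 4 (log2 change -0.34, limma adjusted p = 0.0226) and with median-ratio scaling (log2 change -0.36, limma adjusted p = 0.0362), in a range of 0.0226 to 0.231 over 21 alternatives. Rd3l lies within the gene on the opposite strand, and the counting is not stated to use strand.

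Tdrkh encodes a Tudor protein anchored to mitochondria, where it holds PIWI proteins while piRNA ends are trimmed. Its level (gene ENSMUSG00000041912, chromosome 3, 94413273 to 94434668, plus strand) was 38.8, 31.3, 35.0 and 35.9 FPKM in controls and 35.1, 31.2, 31.3 and 32.5 FPKM in knockouts. The groups overlapped, and the log2 change of -0.11 had a 95% interval of -0.30 to 0.08 (limma, adjusted p = 0.331). Tdrkh-201 held 69.6% of the sum in controls and 66.9% in knockouts, and neither row was called. Tdrkh-202 has 3222 bases that Tdrkh-201 lacks, and its end runs into the range of Oaz3 on the opposite strand. Whether exons overlap there was not checked. Where they do, reads of that end cannot be told apart from Oaz3 if strand was not used.

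Tdrd5, Tdrd6, Tdrd7 and Rnf17 encode proteins best known from the later germ cell granules. Rnf17, a RING finger Tudor protein that limits piRNA amplification in meiotic cells, has a single row (gene ENSMUSG00000000365, chromosome 14, 56402581 to 56525032, plus strand). It was listed at 38.2, 32.6, 33.1 and 30.2 FPKM in controls and at 41.2, 34.1, 35.5 and 36.9 FPKM in knockouts. The ranges overlapped, and the log2 change of 0.14 had a 95% interval of -0.07 to 0.35 (limma, adjusted p = 0.280).

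Tdrd5 encodes a LOTUS and Tudor domain protein that binds piRNA precursors. Its sum (gene ENSMUSG00000060985, chromosome 1, 156255296 to 156303664, minus strand) was 35.6, 31.6, 34.0 and 34.8 FPKM in controls and 36.2, 36.9, 34.2 and 33.9 FPKM in knockouts, a log2 change of 0.05 with a 95% interval of -0.10 to 0.21 (limma, adjusted p = 0.584). Knockouts and controls thus overlapped in the sum, while single rows differed more. Tdrd5-204 was listed at 16.0, 14.7, 17.1 and 18.3 FPKM in controls and at 18.6, 28.6, 19.0 and 20.8 FPKM in knockouts, without overlap but also without a call (limma adjusted p = 0.115). Its share of the sum was 48.5 ± 3.48% in controls and 61.3 ± 11.4% in knockouts, 12.8 points higher (SD, n = 4; exact two-sided permutation p = 0.0571, adjusted p = 0.343 over 6 genes). The smallest p that 70 assignments allow is 0.0286. The share was 77.3% in knockout replicate 2, and without that library the difference was 7.52 points. Tdrd5-201, which starts upstream of Tdrd5-204, was listed at 14.2 to 17.6 FPKM in controls and 7.63 to 16.3 FPKM in knockouts and was not called (limma adjusted p = 0.255). The retained intron row Tdrd5-203 was 1.31 ± 0.257 FPKM in controls and 0.757 ± 0.166 FPKM in knockouts, without overlap and without a call (limma adjusted p = 0.0686). Lack of overlap was common, found in 26% of all 26612 rows tested, and in Tdrd5-204 it was narrow, 18.6 against 18.3 FPKM. Knockout replicate 2 held the highest Tdrd5-204 and the lowest Tdrd5-201, and an antisense gene, 4930518J20Rik, overlaps the 5′ end.

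Tdrd7 encodes another LOTUS and Tudor protein, a part of the chromatoid body that is also known from the eye lens. Its sum (gene ENSMUSG00000035517, chromosome 4, 45965334 to 46034761, plus strand) was 28.7, 26.8, 28.4 and 27.2 FPKM in controls and 21.1, 39.1, 23.8 and 21.6 FPKM in knockouts. Knockout replicates 1, 3 and 4 lay below every control and replicate 2 above every control. The log2 change over all libraries was -0.12 with a 95% interval of -0.51 to 0.27 and was not called (limma, adjusted p = 0.633). Without knockout replicate 2 it was -0.31 and was called (limma adjusted p = 0.00522; 0.00522 to 0.913 over 21 alternatives).

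The high value of knockout replicate 2 lay in a short row. Tdrd7-205, a noncoding row of 525 bases and 2 exons at the 3′ end with no base outside Tdrd7-201, was listed at 21.9 FPKM there. The other knockouts had 1.17 to 3.87 FPKM and the controls 2.31 to 4.57 FPKM. An FPKM divides by length, and these 21.9 FPKM stood for about 379 of 3118 estimated fragments of the gene. In the same library Tdrd7-201 was listed at 3.91 FPKM, against 10.5 to 14.5 FPKM in the other knockouts and 11.8 to 17.2 FPKM in controls. Tdrd7-202, from the CpG-poor start printed above, was listed at 6.13 to 10.4 FPKM in controls and 4.37 to 13.3 FPKM in knockouts, the highest again in replicate 2.

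Summed over protein-coding rows alone, a summary chosen after these rows were seen, Tdrd7 had groups that did not overlap. It was 25.1, 23.3, 25.1 and 22.2 FPKM in controls and 18.8, 17.2, 19.5 and 19.0 FPKM in knockouts. The coding sum fell 1.28-fold, from 23.9 ± 1.42 to 18.7 ± 0.982 FPKM (SD, n = 4), a log2 change of -0.34 with SE 0.08 (limma, adjusted p = 0.00611). Of 11504 genes with coding rows tested, 27.1% rose and 13.1% fell, 40.2% in all. The groups did not overlap in 38.6% of genes tested on sums over all rows, and that share was not computed for coding sums. Estimated fragments of all Tdrd7 rows, which weight rows by fragments and not by FPKM, were 86.3 ± 4.88 per 1000000 in controls and 69.1 ± 1.31 per 1000000 in knockouts. That difference had the smallest exact permutation p the design allows, 0.0286, and an adjusted p of 0.0762 over the 8 members. Any gene whose groups do not overlap gets this p, so it adds nothing to the lack of overlap. The share of all genes without overlap was not computed on this scale. Tdrd1 and Tdrd12 had the same exact p on this scale, 302 ± 29.3 against 221 ± 15.3 and 29.5 ± 1.98 against 40.8 ± 5.74 fragments per 1000000 (SD, n = 4).

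**Figure D2:**
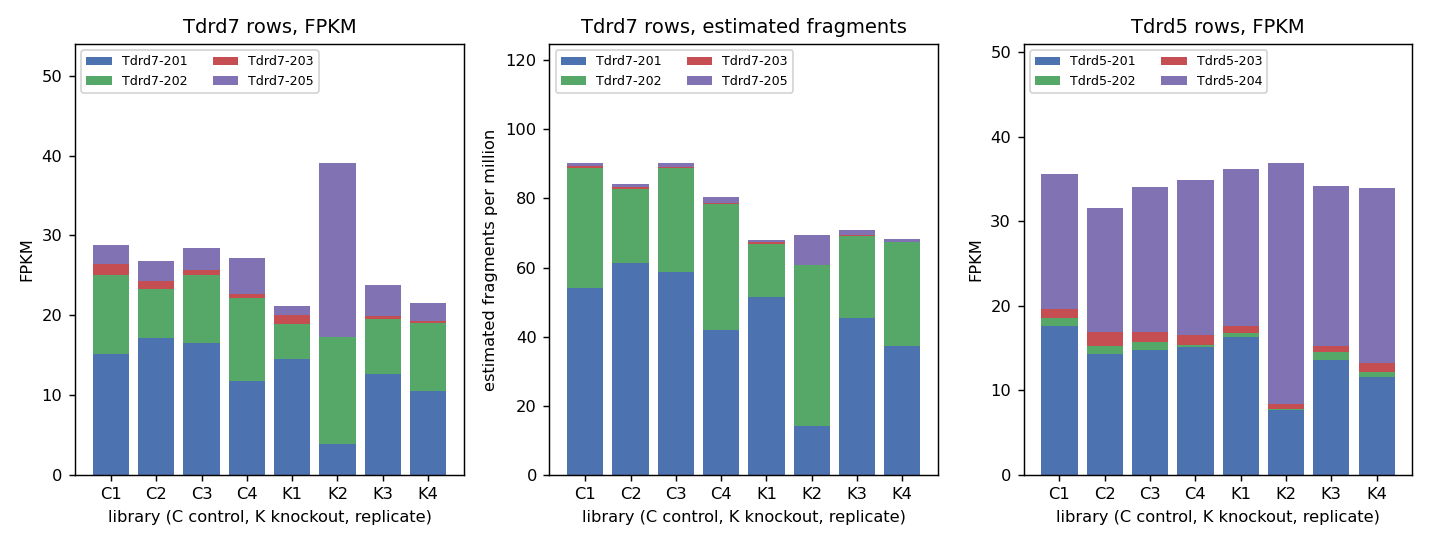
Stacked transcript rows of Tdrd7 in FPKM (left) and in estimated fragments per 1000000 (middle), and of Tdrd5 in FPKM (right), by library (C control, K knockout). Tdrd7-205 makes 21.9 of 39.1 FPKM in knockout replicate 2 but a small part of its fragments, and in the Tdrd5 panel Tdrd5-204 is 28.6 FPKM in knockout replicate 2, against 18.6 to 20.8 FPKM in the other knockouts.

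Tdrd6 encodes a large chromatoid body protein of spermatids, and it was barely detected. Its sum (gene ENSMUSG00000040140, chromosome 17, 43615335 to 43630299, minus strand) was 0.299, 0.0274, 0.659 and 0.536 FPKM in controls and 1.19, 2.24, 0.716 and 0.422 FPKM in knockouts. These values stood for about 11 to 275 fragments a library, and the groups overlapped. The mean lay under the filter, and without a filter the log2 change was 0.59 (limma, adjusted p = 0.0896). The short row Tdrd6-202, with no base of its own, held 10.3% to 81.6% of the sum, so the sums are imprecise.

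**Figure D3:**
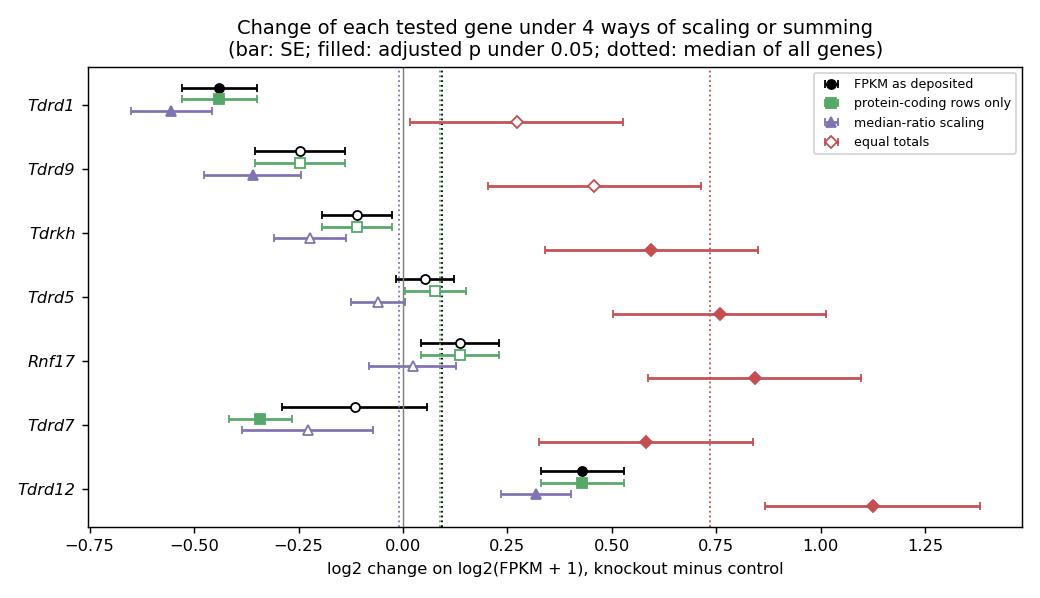
Log2 change (knockout minus control, on log2(FPKM + 1)) of the 7 tested members with FPKM as deposited, protein-coding rows only, median-ratio scaling and equal library totals; bars are SE, filled marks have an adjusted p under 0.05, dotted lines are the medians of all genes. Tdrd12 is filled in all 4 settings and Tdrd1 in all but equal totals, where every member shifts with the dotted line; Tdrd7 moves with the coding rows.

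Of 19 member rows, 14 had a mean of at least 1 FPKM. Tdrd12-201 rose, from 19.8 ± 1.34 to 27.5 ± 3.93 FPKM (SD, n = 4; limma adjusted p = 0.0254), and none fell. That call was lost without any of control replicates 1, 2 or 3 or knockout replicate 3, at log2 changes of 0.41 to 0.45 (limma adjusted p = 0.0634 to 0.0747; 0.00344 to 0.0747 over 15 alternatives). At an unadjusted p under 0.05 stood 4 rows, 2 in each direction, Tdrd12-201 and Tdrd5-204 up and Tdrd1-201 and Tdrd5-203 down. Among all 26612 rows tested, 18% were called: 12% rose and 5.93% fell. The groups did not overlap in 26% of them.

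The genes whose levels followed a member most closely were ranked by Pearson correlation of log2(FPKM + 1) over the 8 libraries, which share the group difference. For Tdrd12 these were A930004D18Rik (r = 0.996), Fam221a (r = 0.993) and Sqstm1 (r = 0.991). Fam221a was 17.3 ± 1.49 FPKM in controls and 26.0 ± 4.39 FPKM in knockouts, with knockout replicate 2 the highest as in Tdrd12. For Tdrd1 they were Fzr1 (r = 0.997), Traf3ip1 (r = 0.993) and Usp36 (r = 0.990). Fzr1 was 32.3 ± 1.78 FPKM in controls and 26.9 ± 1.08 FPKM in knockouts.

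Among other genes of the piRNA pathway, 23 of 24 listed genes were in the table and all were tested. In them 7 rose, 2 fell and 14 were not called, beside 25.3% and 12.1% of all genes. The median log2 change was -0.02, against 0.09 over all genes. The risers of smallest p were Dnmt3l, a cofactor of DNA methylation at transposons, Piwil1, Asz1 and Gtsf1. Dnmt3l rose from 1.35 ± 0.129 to 6.43 ± 0.732 FPKM (SD, n = 4; limma adjusted p = 9.03e-06). Piwil1, the PIWI protein of late meiotic and spermatid stages, rose from 4.34 ± 0.351 to 6.92 ± 0.422 FPKM (limma adjusted p = 0.00107). Asz1, a partner of the mitochondrial cement, rose from 68.1 ± 5.05 to 104 ± 12.9 FPKM (limma adjusted p = 0.00148). Gtsf1, a PIWI cofactor, rose from 88.6 ± 12.2 to 153 ± 30.4 FPKM (limma adjusted p = 0.00321), a call lost with the most abundant row alone, where the log2 change was 0.45.

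The PIWI partners of the members differed. Piwil4, the nuclear PIWI protein that works with TDRD9, rose from 11.2 ± 0.962 to 17.4 ± 4.30 FPKM (limma adjusted p = 0.0147), a call lost with coding rows alone, where the log2 change was 0.20. Piwil2, the partner of TDRD1, fell from 124 ± 15.8 to 96.4 ± 9.50 FPKM (limma adjusted p = 0.0348). Nanos2, a translational regulator of male germ cells, fell from 6.15 ± 2.40 to 3.33 ± 0.543 FPKM (limma adjusted p = 0.0450). Both falls were near the threshold. The Piwil2 call was lost without any of control replicates 1, 2 or 3 or knockout replicates 2, 3 or 4, at log2 changes of -0.37 to -0.30. It was also lost after quantile normalization or removal of small RNAs. Under equal totals, where the median of all genes was 0.74, Piwil2 had a log2 change of 0.37. The Nanos2 call was lost without any of control replicates 1, 3 or 4 or knockout replicates 1, 3 or 4, at log2 changes of -0.74 to -0.49. Ddx4, the germ cell helicase of the same granules, was 198 ± 16.8 and 187 ± 4.06 FPKM and was not called (limma adjusted p = 0.496). Mael was 242 ± 23.2 and 201.5 ± 30.4 FPKM and was not called (limma adjusted p = 0.113), but it was called lower without knockout replicate 2, at a log2 change of -0.37. It was also called lower after median-ratio scaling (-0.38), quantile normalization (-0.31) or removal of small RNAs (-0.40), and under equal totals its log2 change was 0.45. Without knockout replicate 2, 7 of the 23 pathway genes rose and 4 fell, beside 28.6% and 15% of all genes.

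A list of other methylarginine-binding Tudor genes held general factors and Stk31, itself a germ cell gene. In this list 6 of 8 listed were in the table and none was called by limma, with Smn1 alone at an unadjusted p under 0.05. Smn1, which assembles spliceosomal particles, was 34.6 ± 3.52 and 40.3 ± 2.19 FPKM (limma adjusted p = 0.0762). Chromatin proteins with Tudor domains, which read methylated histones, were all 16 tested: 1 rose, 6 fell and 9 were not called, beside 25.3% and 12.1% of all genes. The median log2 change was -0.20, against 0.09 over all genes. The H3K9 and H3K36 demethylases Kdm4b and Kdm4a fell from 5.80 ± 0.302 to 2.61 ± 0.545 FPKM (limma adjusted p = 0.000431) and from 17.0 ± 1.66 to 8.06 ± 1.61 FPKM (limma adjusted p = 0.000596). Phf20, a subunit of a histone acetyltransferase complex, fell from 39.7 ± 4.30 to 26.2 ± 3.45 FPKM (limma adjusted p = 0.00398). With equal totals, where the median of all genes was 0.74, none of the 16 was called lower and 6 were called higher. Kdm4a and Kdm4b kept their sign there, and Phf20 had a log2 change of 0.12.

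**Figure D4:**
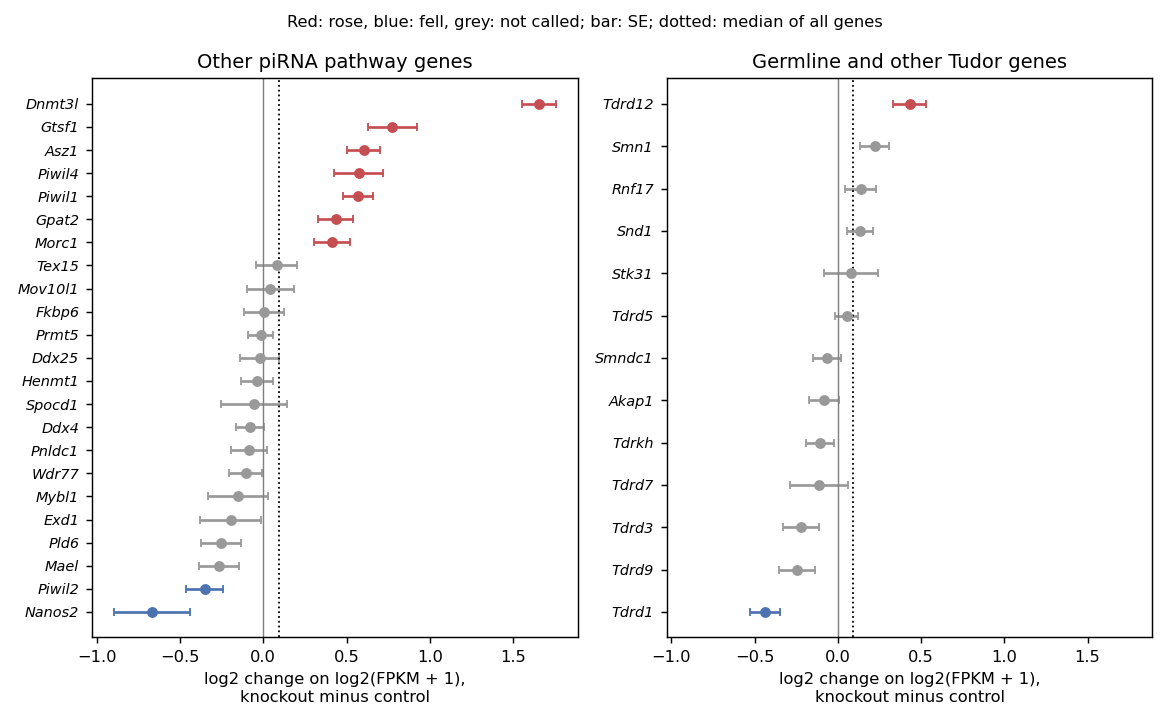
Log2 change (knockout minus control, on log2(FPKM + 1)) of the 23 other piRNA pathway genes (left) and of the 7 tested members with 6 other methylarginine-binding Tudor genes (right), with FPKM as deposited. Bars are SE, red marks rose, blue marks fell, grey marks were not called, and the dotted line is the median of all genes; Tdrd12 and Tdrd1 stand at the ends of the right panel.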

How the data were processed

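RNA of sorted spermatogonia was sequenced in 8 libraries from stranded mRNA kits, per the labels' protocols. The authors deposited FPKM per transcript. TopHat, Bowtie, Cufflinks and Cuffdiff with mm10 were used, per the submitters' processing notes (versions, annotation release and use of strand: not given in the sources used here). No count model was used, since FPKM are not counts.

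Transcript rows were summed by gene identifier. Positions came from GENCODE M21 (GRCm38), which held 17257 of the genes. Genes averaging at least 1 FPKM were tested on log2(FPKM + 1) with limma 3.58.1 in R 4.3.3 (lmFit, eBayes with trend, two-sided, group alone), and calls required an adjusted p (Benjamini-Hochberg, over 13483 genes) under 0.05. Log2 changes on this scale understate those of low genes. Transcript rows were tested likewise. On simulated data with 13483 genes and 100 changed at each size, limma recovered 35% of changes of 0.5 and 83% of 1 on the log2 scale. Far fewer genes were changed there than the 37.5% called in the data, so these shares do not measure the sensitivity here.

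Depth is not stated; it was inferred from 2615 genes whose low FPKM step by single fragments (73.2% to 81.4% of values within 0.1 of whole, 20% by chance), and it also gave the estimated fragments. Mir5105 held 61.3% to 77.1% of the FPKM sum in controls and 29.4% to 52.7% in knockouts, which sets the equal-totals scaling. The labels name no batch.

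The members and lists were chosen with earlier results of these data known. Named genes were the members, their rows of at least 1 FPKM, Kdm1a, up to 4 called piRNA pathway genes in each direction with Piwil2, Piwil4, Ddx4 and Mael, up to 3 called genes of the other Tudor lists, and the 3 genes most like the called members. Cell type markers were named besides. Alternatives covered the pseudocount, the filter, scaling, limma settings, the replicate block, each library left out and other ways to summarise rows.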

Additional observations from a re-analysis of the deposited data

Results flagged for a closer look

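In 40 groups of 4 libraries checked for a single distant value, 5 were found, and chance alone gives about 1 in 20. Knockout replicate 1 of Tdrd1, at 51.3 FPKM, lay far above the other knockouts, whose highest was 45.3 FPKM. Knockout replicate 2 of Tdrd7, at 39.1 FPKM, lay far above the other knockouts, and its Tdrd7-205 row, at 21.9 FPKM, did so as well. Control replicate 4 of Tdrd7-205 was the highest control at 4.57 FPKM. Control replicate 2 of the retained intron row Tdrd5-203 was the highest control at 1.69 FPKM.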

How the results depend on the processing

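Over 21 alternatives, Tdrd12 was called higher in all and Tdrd1 lower in 19. Genes called higher numbered 3417, but 2164 with a mean of at least 5 FPKM, 9549 with equal totals and 2241 with small RNAs removed; genes called lower numbered 1635, but 2648 with quantile normalization and 151 with equal totals. Members called lower numbered 2 with median-ratio scaling and with protein-coding rows, and 0 with equal totals and with the most abundant row, and 5 members were called higher with equal totals; with a library left out, 1 to 2 were called lower and 1 higher. Pathway genes called lower numbered 1 with a mean of at least 5 FPKM and with the most abundant row, 4 with median-ratio scaling, 0 with equal totals and with the replicate block, and 0 to 4 with a library left out; 17 were called higher with equal totals. Member rows called lower numbered 2 after median-ratio scaling, 1 once small RNAs were removed, and rows called higher 3 with equal totals; with a library left out, both numbered 0 to 1. Signs changed with equal totals for Tdrd1 (log2 change 0.27), Tdrd7 (0.58), Tdrd9 (0.46) and Tdrkh (0.59), and for Tdrd5 with median-ratio scaling (log2 change -0.060) and with small RNAs removed (log2 change -0.078). Equal totals moved the median of all genes to 0.74; the cause of the other changes was not tested. Leading row shares differed by -4.01 to 5.88 points in Tdrd1 and -17.3 to 2.17 points in Tdrd7 with a library left out, the sign changing in Tdrd1 without control replicate 1 (-1.71) or 2 (-0.873) or knockout replicate 2, and in Tdrd7 without knockout replicate 2.

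Same-numbered libraries deviated together at correlations of 0.224, -0.12, -0.13 and -0.09. The labels do not say whether the numbers pair libraries, and these mixed values cannot decide it. With the replicate number as a block, Tdrd1 and Tdrd12 were called (limma adjusted p = 0.0110 and 0.0315), 0 member rows were called higher and 0 pathway genes lower; the block changed no other call of a member gene. Tdrd6, at 11 to 275 estimated fragments a library, and the short rows rest on few fragments. The part of depth in their spread was not tested.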
